A study of Mus musculus with 4 samples.

Results

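The p53 response and apoptosis genes described here are 35 mouse genes, chosen by symbol from knowledge of the pathway. Earlier results of these data were known when they were chosen. The genes were found in the gene table by the gene identifiers that carry those symbols. They are 35 of the 54232 genes in the table, and all 35 were found. By role they comprise 5 genes of the p53 family and its MDM regulators, 14 p53 target genes, 11 BCL2 family genes, 2 death receptors, and the 3 genes Apaf1, Casp8 and Casp9. Their RNA was measured in whole testes of B6D2F1 mice at postnatal day 17, when the first wave of germ cells is passing through meiotic prophase. The Dis3 knockout (KO) group has 2 libraries from conditional knockout mice, and the Dis3 wild-type (WT) group has 2 libraries from control mice. Dis3 encodes an RNA-degrading enzyme that works as a subunit of the exosome, which digests RNA from the 3′ end. The Cre driver, and so the cells that lost Dis3, is not given in the sources used here, nor is the number of animals behind a library. If replicates of a genotype came from 1 RNA pool, the p-values measure technical spread alone.

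Reads in genes numbered 17663416 and 19255782 in the KO libraries and 31031920 and 40329170 in the WT libraries. Dis3 itself was at 5.10 and 5.53 RPKM in KO, against 10.3 and 10.4 RPKM in WT (log2 fold change -0.96, SE 0.0729, edgeR adjusted p = 2.34e-09), so the targeted RNA was lower in both libraries labelled KO. RPKM is the usual measure of reads per exon length and depth, here after TMM scaling of the library sizes. Of 25076 genes tested, 2906 (11.6%) were higher and 5092 (20.3%) lower in KO at an adjusted p under 0.05, and the median log2 fold change was 0.05. Cell type markers differed too: all 10 markers of pachytene spermatocytes were lower in KO, with summed levels of 963 to 1049 RPKM in KO and 1610 to 1634 RPKM in WT. Early meiotic markers were lower for 9 of 10 and spermatogonial markers for 5 of 10, with summed levels of 793 to 796 RPKM and 277 to 283 RPKM in KO, and of 1090 to 1125 RPKM and 384 to 408 RPKM in WT. Most of the spermatogonial sum came from Dmrtb1 (mean 87.2 RPKM in KO, 152 RPKM in WT) and Uchl1 (94.5 and 125 RPKM). The spermatogonial markers Zbtb16, Gfra1, Stra8, Sohlh1 and Nanos3 did not pass. Macrophage markers were higher in KO for 9 of 12 (156 to 160 RPKM in KO, 91.2 to 92.4 RPKM in WT). Sertoli cell markers were higher for 6 of 18. The sums over all 18 were 3501 to 3714 RPKM in KO and 3144 to 3365 RPKM in WT. Most of the Sertoli sum came from Clu, Aard, Rhox8 and Cldn11, which did not pass. No marker of these lists was at 0 reads. Leydig cell markers were higher for 2 and lower for 2 of 8, and peritubular myoid markers for 1 and 1 of 6. Of 6 endothelial markers, 2 were higher and 0 lower. In RNA of a whole testis, fewer cells of a type and less RNA per cell cannot be told apart. The part of cell makeup in the results below was not tested.

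The transcription factor p53, encoded by Trp53 in the mouse, accumulates after DNA damage or other stress and switches on genes for cell cycle arrest, repair and cell death. MDM2 marks p53 for degradation and is itself a p53 target, which closes a feedback loop. In mitochondrial apoptosis, BCL2 and its relatives hold the effectors BAX and BAK in check, BH3-only proteins release them, and cytochrome c then drives APAF1 to activate caspase 9. Death receptors such as FAS act through caspase 8 instead. Germ cells die in large numbers during the first wave of mouse spermatogenesis, and mice without BAX accumulate premeiotic germ cells and lack mature sperm.

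Of the 35 genes, 4 were higher in KO (Sesn2, Phlda3, Bcl2 and Bcl2l11), 6 were lower (Trp63, Mdm2, Mdm4, Bcl2l1, Bid and Bad) and 25 did not pass the test. The shares called, 11.4% higher and 17.1% lower, stand close to the 11.6% and 20.3% of all tested genes, so the counts are no result particular to these genes. Of the 35 genes, 33 lay at 5 times background or more, and of the 16633 tested genes at such levels 8.43% were higher and 30.5% lower. The median log2 fold change of the 35 genes was 0.03, against 0.05 over all tested genes and -0.12 over those 16633. All 10 changes were below 1.5-fold in size. The well-known p53 targets Cdkn1a, Ccng1, Bax, Gadd45a, Sesn1 and Zmat3 are among the 25 that did not pass. Of the 10 calls, those of Mdm2, Mdm4, Bcl2l11 and Bad held in all 11 alternative fits. Scaling on Sertoli cell markers in place of TMM, which shifted the median of all genes by -0.16, left 1 gene of the 35 higher and 9 lower, beside 4 and 6; over all genes it gave 1739 higher and 7510 lower.

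**Figure D1:**
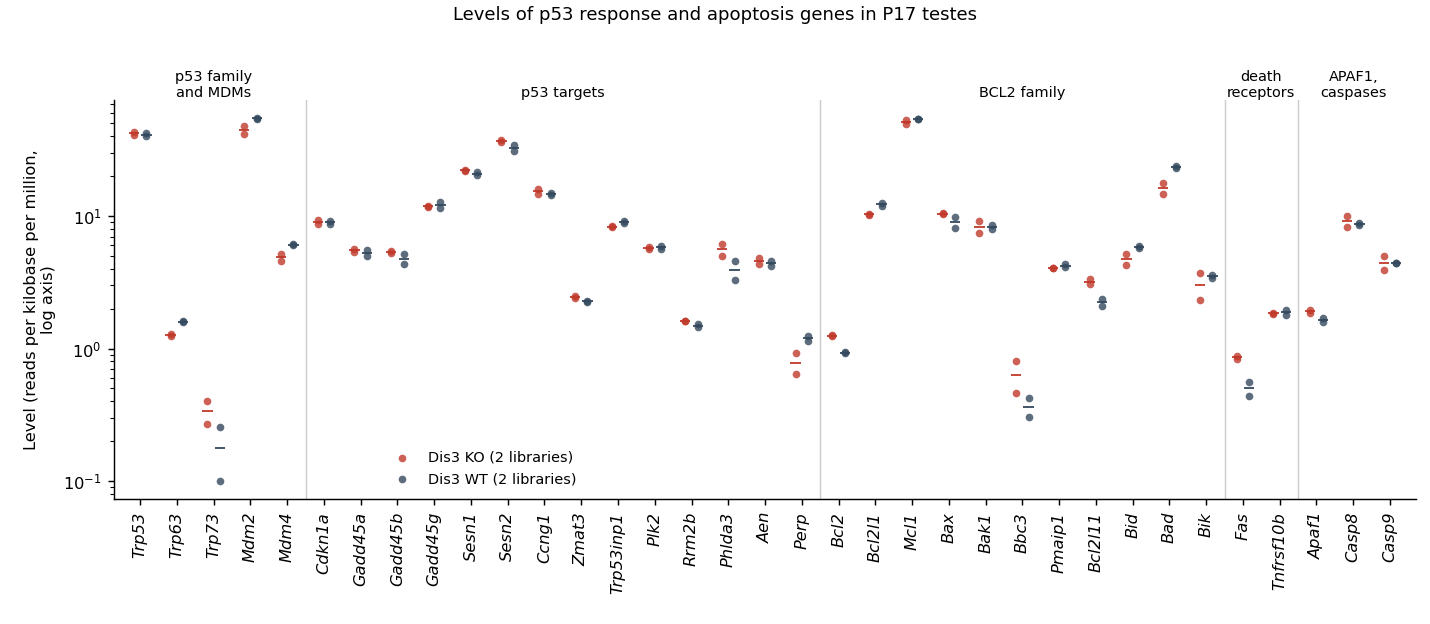
Level of each of the 35 genes (vertical log axis, RPKM) in the 2 KO libraries (red, left of each pair) and the 2 WT libraries (grey, right), with short bars for the means. Levels run from about 0.3 RPKM for Trp73 to about 52 RPKM for Mcl1, and the gaps between genotypes are small beside the differences between genes.

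The RefSeq promoter table (GRCm38.p6) held windows of 300 bases, 250 before and 50 after a transcription start, for 27 of the 35 genes. The p53 half-site consensus, the decamer of which a p53 binding site holds a pair, was searched by its letters in 38 windows. It reads the same on both strands, so 1 search covers both. An exact match lay in a window of 8 of these 27 genes (29.6%), against 9.55% of all genes in the table: Trp53, Mdm2, Cdkn1a, Gadd45a, Sesn1, Ccng1, Aen and Bax. Cdkn1a was the single gene of the set with 2 exact matches close together, a pattern in 0.0731% of all windows. Both lay in the same window, and the other window of Cdkn1a held none. Many of these genes were chosen as known p53 targets, so this share is a description of the choice and no finding. Shown are 250 bases for Cdkn1a, Mdm2, Ccng1 and Bax, which carry matches (in capitals), and for Bad and Bcl2l11, 2 genes that changed in KO and carry none; each is written 5′ to 3′ on the strand of its gene.
Cdkn1a, chr17:29090729-29090978, plus strand: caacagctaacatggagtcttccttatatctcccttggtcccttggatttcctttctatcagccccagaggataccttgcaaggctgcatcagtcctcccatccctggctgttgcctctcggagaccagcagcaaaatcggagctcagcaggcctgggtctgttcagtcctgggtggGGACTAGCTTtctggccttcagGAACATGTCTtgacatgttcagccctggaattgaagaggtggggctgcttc
Mdm2, chr10:117710759-117711008, minus strand: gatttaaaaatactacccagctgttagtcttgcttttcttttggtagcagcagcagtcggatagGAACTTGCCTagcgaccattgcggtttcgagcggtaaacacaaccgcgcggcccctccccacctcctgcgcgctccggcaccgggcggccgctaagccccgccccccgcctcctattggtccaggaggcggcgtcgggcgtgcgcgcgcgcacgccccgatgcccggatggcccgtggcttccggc
Ccng1, chr11:40755287-40755536, minus strand: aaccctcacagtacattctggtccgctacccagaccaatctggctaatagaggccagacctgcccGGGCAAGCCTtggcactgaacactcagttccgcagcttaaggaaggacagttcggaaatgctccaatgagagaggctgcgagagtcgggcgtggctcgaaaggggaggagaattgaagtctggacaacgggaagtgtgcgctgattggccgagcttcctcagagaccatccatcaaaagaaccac
Bax, chr7:45466899-45467148, minus strand: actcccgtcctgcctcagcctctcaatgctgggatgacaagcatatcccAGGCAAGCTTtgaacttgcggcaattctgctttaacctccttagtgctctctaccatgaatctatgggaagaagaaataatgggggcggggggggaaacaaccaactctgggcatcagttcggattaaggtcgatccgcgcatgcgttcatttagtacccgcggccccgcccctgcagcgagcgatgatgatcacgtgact
Bad, chr19:6941611-6941860, plus strand: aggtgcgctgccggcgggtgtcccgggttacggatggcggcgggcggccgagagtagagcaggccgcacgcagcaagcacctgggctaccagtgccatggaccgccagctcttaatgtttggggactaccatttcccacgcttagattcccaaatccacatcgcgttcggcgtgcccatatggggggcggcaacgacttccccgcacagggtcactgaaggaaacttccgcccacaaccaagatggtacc
Bcl2l11, chr2:128125788-128126037, plus strand: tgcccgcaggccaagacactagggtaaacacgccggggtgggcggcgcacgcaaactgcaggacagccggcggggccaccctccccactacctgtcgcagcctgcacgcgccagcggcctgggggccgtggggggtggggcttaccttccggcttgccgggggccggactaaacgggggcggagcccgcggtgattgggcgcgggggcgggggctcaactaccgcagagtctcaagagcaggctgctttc

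Measured from the RefSeq start, the matches of Cdkn1a began at -73 and -51. That of Mdm2 began at -186, that of Ccng1 at -185 and that of Bax at -201. Only exact matches were marked, so the near match tgacatgttc, directly after the second match of Cdkn1a, is not in capitals. A match is a run of letters and not evidence of binding, and well-studied p53 sites of Mdm2, in its first intron, lie outside such a window. The 8 genes with a match counted 0 higher and 1 lower in KO (Mdm2), with log2 fold changes of -0.29 to 0.22 and a median of 0.06. The 19 genes with a window and no match counted 4 higher and 4 lower, with a median of 0.06. The 2 medians differed by less than 0.01. Over all tested genes 11.6% were higher and 20.3% lower, and the split by match was not tested.

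Within the p53 family, Trp53 did not pass the test, while both MDM regulators and Trp63 were lower in KO. Trp53 (chr11:69580359-69591873) was at 43.0 and 41.0 RPKM in KO, against 40.1 and 42.4 RPKM in WT. The ranges overlapped, and the log2 fold change was 0.03 (95% interval -0.10 to 0.15, edgeR adjusted p = 0.760), which covers changes of at most 1.11-fold upward. p53 is controlled largely through its protein, which was not measured.

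Mdm2 (chr10:117688875-117710758), the ubiquitin ligase for p53, was at 47.6 and 41.8 RPKM in KO, against 54.1 and 54.9 RPKM in WT. Both KO libraries lay below both WT libraries, and KO replicate 2 was the lowest. The log2 fold change was -0.29 (SE 0.0642, edgeR adjusted p = 0.00137). Mdm4 (chr1:132959484-133030561), the MDM2 relative that binds p53 and blocks its activity, was at 5.14 and 4.61 RPKM in KO and 6.15 and 6.05 RPKM in WT. Its groups did not overlap either, with a log2 fold change of -0.32 (SE 0.0687, edgeR adjusted p = 0.000841). Mdm2, a gene that p53 itself induces, thus changed in the opposite direction to Sesn2 and Phlda3, the pair that rose among the 14 p53 targets.

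Trp63 (chr16:25683763-25892102) encodes p63, a p53 relative known to guard female germ cells and to be present in male ones. It stood at 1.24 and 1.28 RPKM in KO and 1.605 and 1.593 RPKM in WT. Replicates lay close together and the groups apart, with a log2 fold change of -0.35 (SE 0.125, edgeR adjusted p = 0.0379). The call was lost in 5 of 11 alternatives, among them DESeq2 (adjusted p = 0.108) and the fits without KO replicate 1 (0.111), WT replicate 1 (0.0657) or WT replicate 2 (0.105). Trp73, the third relative, was near background at 27 and 46 reads in KO and 42 and 21 reads in WT, 2.11 times the reads expected from background over its length. Its log2 fold change of 0.95 (edgeR adjusted p = 0.0809) passed without WT replicate 1 (0.00175), without KO replicate 1 (0.0394), with a replicate block (0.0280) and with a filter of 1 CPM in 2 libraries (0.0433). It did not pass after background subtraction (0.468) or in the other 6 alternatives.

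Background was estimated from regions upstream of genes that the low-count filter removed, and amounted to 0.165 and 0.165 RPKM in KO and 0.0915 and 0.0667 RPKM in WT. This estimate was higher in KO relative to depth. Whether it holds RNA that rose upstream of genes in KO was not tested. Of the 35 genes, 5 lay under 10 times this estimate: Trp73, Bbc3, Fas, Perp and Bcl2. Of the 25 genes that did not pass, the 21 at or over 10 times background had log2 fold changes between -0.20 and 0.22, while the other 4 spread from -0.59 to 0.95.

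**Figure D2:**
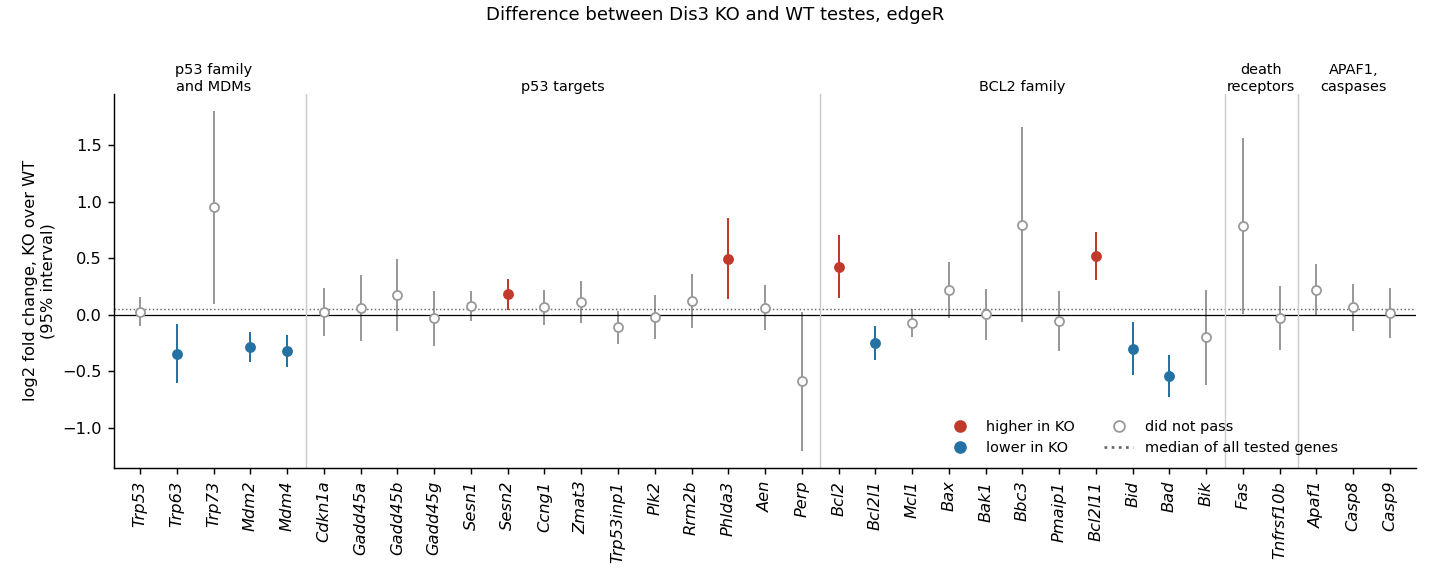
Log2 fold change of each gene, KO over WT (vertical axis), with its 95% interval from the edgeR fit; red marks genes higher in KO, blue genes lower in KO, open circles genes that did not pass, and the dotted line the median of all tested genes at 0.05. The widest intervals belong to Trp73, Bbc3, Fas and Perp, the genes with fewest reads, and Cdkn1a and Trp53 lie on the 0 line.

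Among the 14 p53 targets, 2 were higher in KO, 0 were lower and 12 did not pass in edgeR, with a median log2 fold change of 0.06. Those shares, 14.3% higher and 0% lower, stand beside 11.6% and 20.3% of all tested genes. Over tested genes at 5 times background or more the shares were 8.43% and 30.5%. At an unadjusted p under 0.05 the 14 targets also counted 2 higher and 0 lower, and DESeq2 called 0 of them in either direction. Cdkn1a (chr17:29090979-29100722), which encodes the cell cycle inhibitor p21, was at 9.40 and 8.78 RPKM in KO and 9.12 and 8.78 RPKM in WT. The groups overlapped, and the log2 fold change of 0.02 had a 95% interval of -0.19 to 0.23 (edgeR adjusted p = 0.883), so a rise above 1.18-fold lies outside it. Ccng1, cyclin G1, averaged 15.4 ± 0.850 RPKM in KO and 14.7 ± 0.417 RPKM in WT (SD, n = 2 each), with a log2 fold change of 0.07 (95% interval -0.09 to 0.22). Neither gene gave a difference beyond replicate spread.

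Sesn2 (chr4:132492032-132510501) encodes sestrin 2, a stress-induced brake on mTORC1 signalling that also responds to other stress factors than p53. It was at 36.0 and 37.6 RPKM in KO, against 34.3 and 30.8 RPKM in WT, with both KO libraries above both WT libraries. The log2 fold change was 0.18 (SE 0.0657, edgeR adjusted p = 0.0401). This small call was lost in 6 of 11 alternatives, and without KO replicate 2 or WT replicate 2 the log2 fold change was 0.09 in both fits (adjusted p = 0.417 and 0.538).

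Phlda3 (chr1:135766119-135769136), a p53-induced inhibitor of AKT at the membrane, was at 5.03 and 6.17 RPKM in KO, against 3.30 and 4.601 RPKM in WT. The groups did not overlap, though KO replicate 1 and WT replicate 2 were close. The log2 fold change was 0.50 (SE 0.175, edgeR adjusted p = 0.0336), and the call was lost in 6 of 11 alternatives. Its fold change on that scale was 0.28 without KO replicate 2 (adjusted p = 0.360), 0.25 without WT replicate 1 (0.334), 0.75 without WT replicate 2 (0.00365) and 0.48 after background subtraction (0.0580). WT replicate 1 alone, at 3.30 RPKM, was well below the other WT library.

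The remaining targets did not pass. Growth arrest genes of the GADD45 group were at 5.35 and 5.64 RPKM (Gadd45a), 5.46 and 5.29 RPKM (Gadd45b) and 11.7 and 12.01 RPKM (Gadd45g) in KO. In WT they were at 4.97 and 5.58 RPKM, 5.20 and 4.36 RPKM, and 12.7 and 11.6 RPKM in the same order of genes. Gadd45b had the largest log2 fold change of this trio, 0.17 (edgeR adjusted p = 0.398). Sesn1, the other sestrin, averaged 22.1 ± 0.220 RPKM in KO and 20.9 ± 0.607 RPKM in WT (SD, n = 2 each). Trp53inp1, which promotes p53-dependent death and autophagy, was at 8.23 and 8.40 RPKM in KO and 9.14 and 8.87 RPKM in WT, with a log2 fold change of -0.11 (edgeR adjusted p = 0.229). These genes differed by less than the test could separate from replicate spread.

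Rrm2b, the p53-induced ribonucleotide reductase subunit, averaged 1.62 RPKM in KO and 1.49 RPKM in WT. Zmat3, a zinc finger RNA-binding protein, averaged 2.45 RPKM in KO and 2.27 RPKM in WT. Aen, an apoptosis-enhancing nuclease, averaged 4.59 RPKM in KO and 4.40 RPKM in WT. Plk2, a polo-like kinase, averaged 5.71 RPKM in KO and 5.80 RPKM in WT. None of these 4 passed. Perp, a membrane protein of desmosomes and of p53-dependent death, had just 23 and 37 reads in KO and 72 and 84 reads in WT. In RPKM the groups did not overlap (0.646 and 0.921 in KO, 1.25 and 1.13 in WT), and the log2 fold change of -0.59 had a 95% interval of -1.21 to 0.03 (edgeR adjusted p = 0.131).

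In the BCL2 family, 2 of 11 genes were higher in KO and 3 lower. Those shares, 18.2% and 27.3%, stand beside 11.6% and 20.3% of all tested genes. Over tested genes at 5 times background or more the shares were 8.43% and 30.5%. The other 6 genes of the family did not pass, and both kinds of change included genes for and against survival. Of the genes that passed, the largest fall was that of Bad (chr19:6941861-6951898), a BH3-only protein that binds BCL2 and BCL-XL and is silenced by phosphorylation. Bad was at 14.6 and 17.7 RPKM in KO, against 23.2 and 23.9 RPKM in WT. Both KO libraries lay below both WT libraries, and the log2 fold change was -0.54 (SE 0.0891, edgeR adjusted p = 5.48e-05), or 0.687-fold. Under the 11 alternatives it lay between -0.75 and -0.43 with an adjusted p of at most 0.000163.

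Bcl2l11 (chr2:128126038-128162547) encodes BIM, a BH3-only protein that can bind all main survival members of the family. It was at 3.32 and 3.05 RPKM in KO, against 2.36 and 2.10 RPKM in WT. The groups were well apart, with a log2 fold change of 0.52 (SE 0.103, edgeR adjusted p = 0.000447), or 1.43-fold. Across the alternatives it lay between 0.36 and 0.58, with adjusted p of at most 0.0128. BIM and BAD are thus 2 death-promoting genes that changed in opposite directions in the same libraries.

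Bid (chr6:120891930-120916853), the BH3-only protein cleaved by caspase 8, was at 4.23 and 5.21 RPKM in KO and 5.94 and 5.73 RPKM in WT. KO replicate 1 was the lowest, and without it the log2 fold change went to -0.19 (edgeR adjusted p = 0.348), beside -0.30 with all libraries (SE 0.112, adjusted p = 0.0437). Bik, another BH3-only gene, showed the same library apart, at 2.31 RPKM in KO replicate 1 and 3.72 RPKM in KO replicate 2, against 3.61 and 3.38 RPKM in WT. Its log2 fold change was -0.20 (adjusted p = 0.469), 0.07 without KO replicate 1 (0.857) and -0.65 without KO replicate 2 (0.0412). The BH3-only p53 targets Bbc3 (PUMA) and Pmaip1 (NOXA) did not pass. Bbc3 had 18 and 35 reads in KO and 19 and 34 reads in WT, in libraries of unequal depth, 4.29 times background, with a log2 fold change of 0.80 (95% interval -0.07 to 1.66, adjusted p = 0.147). Pmaip1, with 196 reads or more in each library, was at 4.06 and 4.07 RPKM in KO and 4.12 and 4.34 RPKM in WT.

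Of the survival genes, Bcl2 was higher and Bcl2l1 lower, and Mcl1 did not pass. Bcl2 (chr1:106538178-106714274), the founding member, was at 1.25 and 1.26 RPKM in KO, against 0.931 and 0.936 RPKM in WT. Replicates were nearly equal and the log2 fold change was 0.42 (SE 0.134, edgeR adjusted p = 0.0189). At 9.59 times background the call did not survive background subtraction (0.34, adjusted p = 0.0755), nor the loss of any 1 library (0.0712 to 0.130) or DESeq2 (0.0974). Bcl2l1 (chr2:152780668-152831728), which encodes BCL-XL, was at 10.4 and 10.2 RPKM in KO, against 12.01 and 12.5 RPKM in WT. Its log2 fold change of -0.25 (SE 0.0737, edgeR adjusted p = 0.0123) was lost in 1 alternative, without WT replicate 2 (0.0886). Mcl1, highest of the set in its mean over the 4 libraries though below Mdm2 in both WT libraries, was at 52.9 and 49.3 RPKM in KO and 53.6 and 53.6 RPKM in WT (log2 fold change -0.07, adjusted p = 0.376).

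The 2 pore-forming effectors did not pass. Bax was at 10.4 and 10.5 RPKM in KO and 9.87 and 8.15 RPKM in WT, with a log2 fold change of 0.22 (95% interval -0.03 to 0.46, edgeR adjusted p = 0.173). Both KO libraries lay above both WT libraries, and the WT libraries were spread more widely. Bak1 averaged 8.30 ± 1.13 RPKM in KO and 8.31 ± 0.420 RPKM in WT (SD, n = 2 each).

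Both death receptors and the 3 genes of caspase activation did not pass in edgeR or in DESeq2, and 1 of the 5, Fas, had an unadjusted p under 0.05. Fas had 29 and 31 reads in KO and 30 and 30 reads in WT, which at the unequal depths made 0.883 and 0.836 RPKM in KO against 0.564 and 0.439 RPKM in WT. Its log2 fold change of 0.78 (edgeR adjusted p = 0.114) rests on a level 5.72 times background. Tnfrsf10b, the mouse TRAIL receptor, averaged 1.84 RPKM in KO and 1.88 RPKM in WT. Apaf1, the scaffold of the apoptosome, was at 1.87 and 1.96 RPKM in KO and 1.70 and 1.59 RPKM in WT, with a log2 fold change of 0.22 (adjusted p = 0.139). Casp8, the initiator behind death receptors, averaged 9.10 RPKM in KO and 8.68 RPKM in WT, and Casp9, the initiator behind APAF1, 4.45 RPKM in KO and 4.42 RPKM in WT. None of these 5 genes showed a difference that the test could separate from replicate spread.

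Further genes of the pathway, outside the 35, were taken from lists that were also chosen with earlier results of these data known. Of 30 further p53 targets, 3 were higher in KO (10%), 5 were lower (16.7%) and 22 did not pass. The shares were 11.6% and 20.3% over all tested genes, and 8.43% and 30.5% over those at 5 times background or more. The list had a median log2 fold change of -0.07. Ptprv is known as a p53-induced receptor tyrosine phosphatase in the mouse, though GENCODE M21 lists it as a processed transcript and not as protein-coding. Ptprv was at 1.99 and 1.90 RPKM in KO, against 9.49 and 9.88 RPKM in WT. Its fall to 0.201-fold (log2 fold change -2.32, SE 0.0878, edgeR adjusted p = 3.43e-14) stands far outside the range of the 35 genes. Rps27l (log2 fold change -0.46, adjusted p = 5.12e-06) and Siva1, a death-domain protein (-0.41, 7.36e-05), were also lower. Higher were Sulf2, a heparan sulfatase (0.29, 0.000767), Tap1, a peptide transporter of antigen presentation (0.58, 0.00875), and Eda2r, a TNF receptor family member (0.96, 0.0256). The call of Eda2r was lost in 4 of 11 alternatives, at 0.56 without KO replicate 1 (adjusted p = 0.395) and with adjusted p of 0.0915 without WT replicate 2, 0.0789 after background subtraction and 0.0962 in DESeq2. That of Tap1 was lost without KO replicate 2 (0.0734) and in DESeq2 (0.0510), and that of Sulf2 with Sertoli marker scaling (0.133). Rps27l counts are uncertain because near-identical copies of ribosomal protein genes can share its reads.

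Of 18 kinases and modifiers that act upstream of p53, 10 were lower in KO and 0 higher in edgeR, with a median log2 fold change of -0.22. At an unadjusted p under 0.05 there were 12 lower and 0 higher, and DESeq2 called 9 lower and 0 higher. The 5 with the smallest adjusted p were Kat5, an acetyltransferase (log2 fold change -0.52, edgeR adjusted p = 1.62e-06), Atr, a DNA damage kinase (-0.47, 1.90e-06), Sirt1, a deacetylase of p53 (-0.42, 6.16e-05), Rpl5, a ribosomal protein that binds MDM2 (-0.29, 0.000561), and Ppm1d, a phosphatase and p53 target (-0.34, 0.00177). This share of 55.6% lower stands beside 20.3% of all tested genes and 30.5% of the 16633 at 5 times background or more. All 18 genes lay at 28.2 times background or more, and no share was taken over genes at such levels. The share is a description with no test. Of the kinases in the list, Atr and Stk11 (-0.20, 0.0253) were lower. Atm (log2 fold change -0.12, edgeR adjusted p = 0.218), Chek1 (-0.25, 0.0557), Chek2 (-0.06, 0.770), Prkdc (-0.03, 0.837) and Hipk2 (0.12, 0.159) did not pass. Rpl5 is subject to the same uncertainty over copies as Rps27l. In these libraries the pachytene markers fell as well, as given above, and a link between these changes was not tested.

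Of 22 further caspases and genes of execution, 2 were higher (9.09%, beside 11.6% of all tested genes) and 5 lower (22.7%, beside 20.3%). Over tested genes at 5 times background or more the shares were 8.43% and 30.5%. Cyct, the testis-specific cytochrome c of spermatocytes and later germ cells, was at 230 and 214 RPKM in KO, against 338 and 358 RPKM in WT (log2 fold change -0.65, edgeR adjusted p = 3.70e-08). Diablo, which encodes SMAC, an antagonist of inhibitor-of-apoptosis proteins, was lower by a log2 fold change of -0.76 (6.40e-07), as were the inhibitors Birc2 (-0.35, 0.000514) and Birc5, survivin (-0.44, 0.00316). The fifth, Htra2, was at an adjusted p of 0.0160. Cflar, the caspase 8 inhibitor FLIP, and Birc3 were higher, by 0.32 (0.0121) and 0.36 (0.0367). The call of Cflar was lost in 5 of 11 alternatives, with adjusted p of 0.0614 in DESeq2, 0.217 without KO replicate 1 and 0.104 without WT replicate 2. That of Birc3 was lost in 6, with 0.143 in DESeq2, 0.333 without KO replicate 2 and 0.423 without WT replicate 2. Of 9 tested genes of the further BCL2 family, Bnip3l was lower (-0.33, 0.00881, and 0.230 without WT replicate 2) and Bcl2l15 higher at 14 and 14 reads in KO and 7 and 2 reads in WT, 1.17 times background, a call lost without KO replicate 1, KO replicate 2 or WT replicate 2 (0.132 to 0.178). Among 7 tested genes of death receptor signalling, 0 passed in either direction by edgeR or DESeq2, and 2 were higher at an unadjusted p under 0.05. Fasl and Bcl2l10 had too few reads to be tested.

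**Figure D3:**
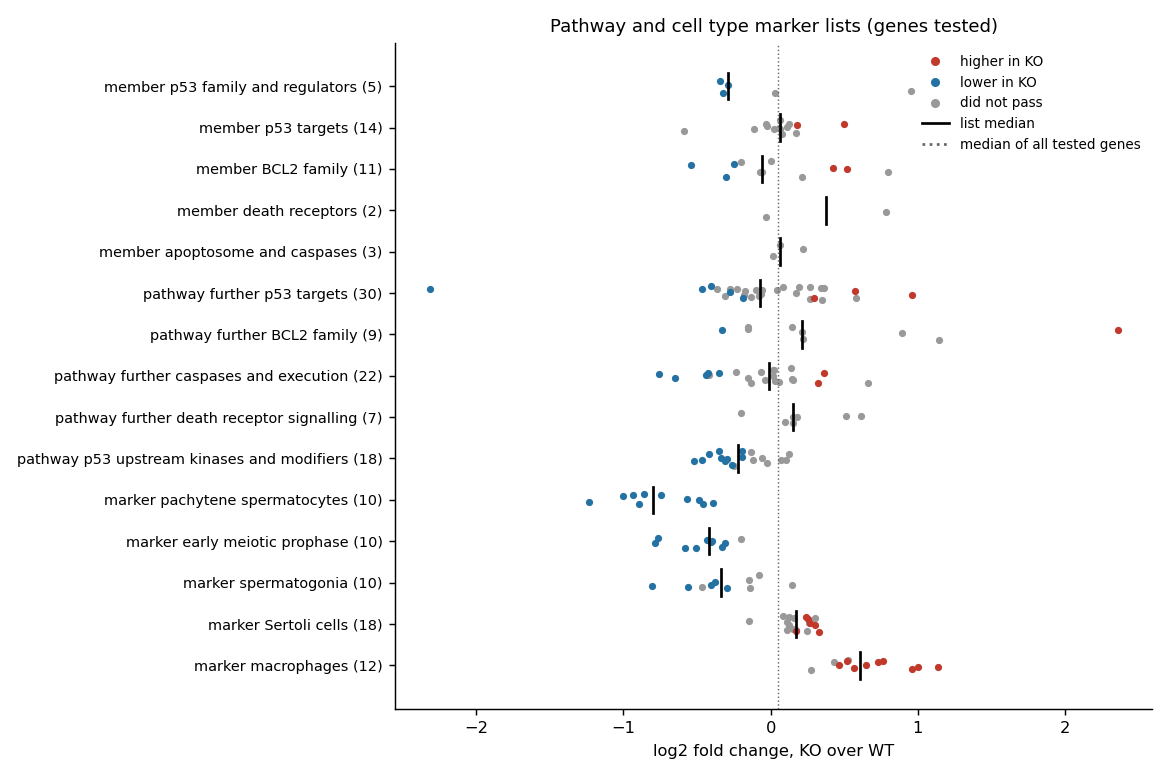
Log2 fold change, KO over WT (horizontal axis), of each tested gene by list, with the number tested in brackets; red marks higher in KO, blue lower, grey not passed, and black bars list medians. Of the 5 groups of the 35 genes, 4 straddle 0 and the 3 genes Apaf1, Casp8 and Casp9 lie just above it, while pachytene markers lie wholly below 0 and macrophage markers wholly above it.

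A second readout came from reads in the 3000 bases directly upstream of genes, counted on the same (sense) and the opposite (antisense) strand. Nuclear exosomes degrade short transcripts that run outward from promoters, which fall on the antisense strand here. Of the 35 genes, 23 had such a region. On the antisense strand all 23 were tested and 2 were higher in KO, beside 8.56% of all tested regions, and 0 were lower, beside 0.0875%. Upstream of Phlda3 (chr1:135763119-135766118) there were 18 and 31 antisense reads in KO, against 4 and 11 reads in WT (log2 fold change 2.49, SE 0.555, edgeR adjusted p = 0.0205). Upstream of Gadd45g (chr13:51843678-51846677) there were 22 and 22 reads in KO, against 11 and 5 reads in WT (2.20, SE 0.579, adjusted p = 0.0360). The KO libraries had the higher counts at both although they were the shallower ones. Background per region was also higher in KO, at 9.04 and 10.2 reads, against 8.11 and 7.59 reads in WT.

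The median log2 fold change of the regions of the set, 0.66 on the antisense and 0.62 on the sense strand, was below that of all tested regions, 0.99 and 0.90. Scaling the upstream tables on themselves, which removes that general shift, left 0 of the set's antisense regions called, and without KO replicate 2 there were 0 and without WT replicate 1 there were 5. The regions with most antisense reads belonged to Bcl2l1 (40 and 61 reads in KO, 65 and 74 in WT), Zmat3 (27 and 36 in KO, 51 and 72 in WT) and Mcl1 (30 and 51 in KO, 37 and 65 in WT). None of them passed. On the sense strand 17 regions were tested and 0 passed in edgeR or DESeq2, beside 0.0166% of all tested regions higher in KO, and 2 were higher at an unadjusted p under 0.05. Medians were 11 and 12 sense reads per region in KO and 12 and 12 in WT. Background, itself taken from regions upstream of untested genes, gave 9.04 to 10.2 reads in KO and 7.59 to 8.11 in WT. The sense signal was thus hardly above that of such regions.

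**Figure D4:**
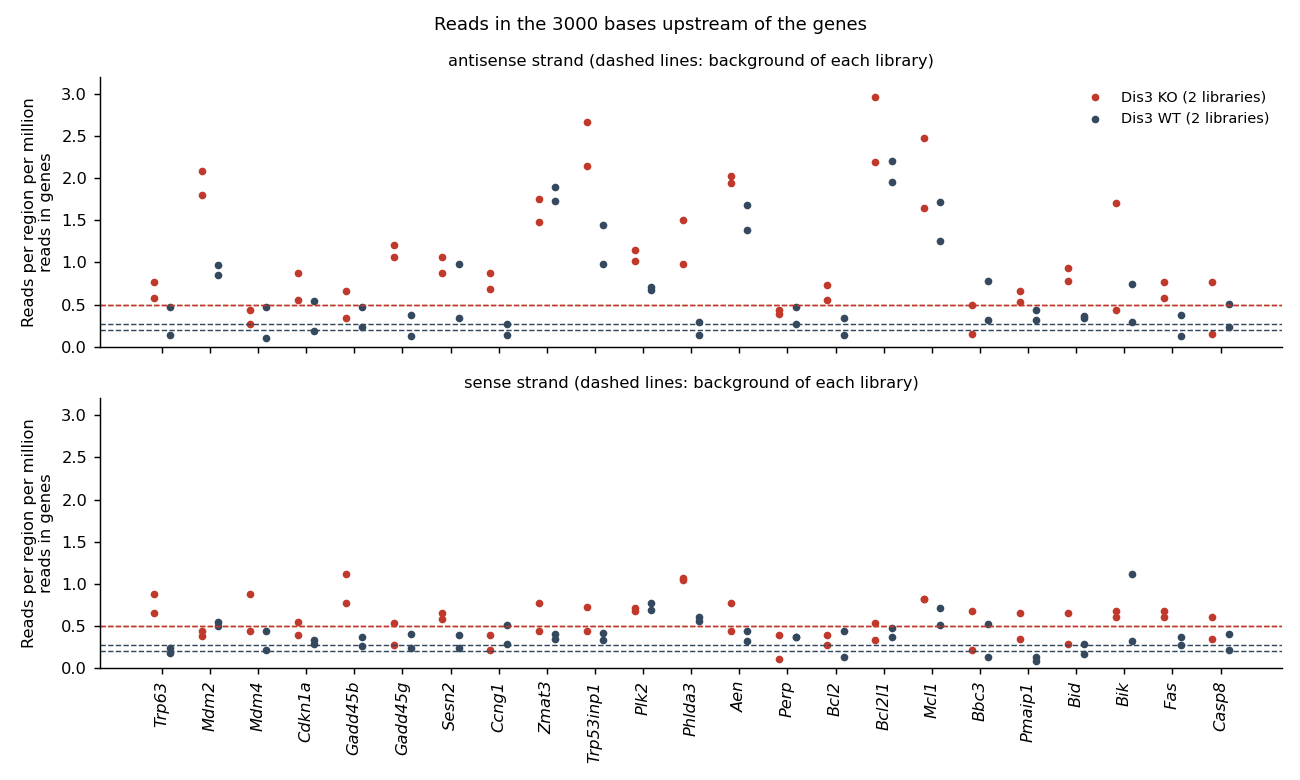
Reads in the 3000 bases upstream of 23 genes, scaled to the reads in genes (vertical axis), on the antisense strand (top) and the sense strand (bottom), for 2 KO libraries (red, left) and 2 WT libraries (dark, right); dashed lines give the background of each library. On the antisense strand Phlda3 and Gadd45g, which passed, have both KO libraries above both WT libraries. So do regions that did not pass, among them Mdm2, Ccng1 and Trp53inp1. Most sense values lie near the dashed lines.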

How the data were processed

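Raw read counts per gene, and per 3000-base region upstream of genes, were used as deposited. Per the file headers, the authors counted reads with featureCounts 1.6.4 on the strand of the gene over exons of GENCODE M18. Per the submitters' processing notes, cutadapt, HISAT2 and GRCm38.p5 were used; no version of that trimmer or aligner is given in the sources used here. Reads over several genes went uncounted, which touches the 9 of 35 genes with a same-strand overlapping gene model, Trp63, Sesn2, Bcl2 and Bid among those called. Symbols came from GENCODE M21.

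Differences were tested on the counts by edgeR 4.0.16 under R 4.3.3 (filterByExpr, TMM, robust quasi-likelihood fit, genotype alone) with Benjamini-Hochberg adjustment over all genes tested and a threshold of 0.05. SE is the log2 fold change divided by the square root of F. Upstream regions used the scaling of the gene table. Background is the trimmed mean (0.25 per end) over 14248 upstream regions of untested autosomal genes. An exact permutation of 2 against 2 libraries could not go below p = 0.333, so single values got none. The procedure was checked on simulated counts with log2 changes of 0.5, 1 and 2 in size. For genes, 60.6%, 77.6% and 92.5% of these were recovered, and 17 of 171 calls were false, a share above the threshold of 0.05. For sense upstream regions, 1.52%, 2.99% and 34.3% were recovered, and 0 of 26 calls were false. Few genes were changed in the simulation, and equally in both directions, so a shift of many genes as in these data was not simulated.

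Genes named are each one that passed and all others of the 35 by level. In further lists they are the 5 smallest adjusted p plus genes called against the majority. Htra2, Fasl, Bcl2l10, the upstream kinases other than Atr and the single cell type markers were named after their values were seen. The members and lists were chosen with earlier results of these data known. Alternatives were DESeq2 1.42.0, other scalings and filters, a replicate block, background subtraction and each library left out. Intervals and p-values cover these 4 libraries. Replicates differed beyond sampling noise (chi-square per degree of freedom 5.98 in KO and 5.04 in WT).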

Additional observations from a re-analysis of the deposited data

How the results depend on the processing

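Across 11 alternatives to the gene fit, the calls of Mdm2, Mdm4, Bcl2l11 and Bad held, and none of the 10 called genes changed sign. The 4 genes higher in KO became 1 with DESeq2, 1 with Sertoli marker scaling, 1 with no filter, 2 after background subtraction, 6 with a filter of 1 CPM in 2 libraries and 1 to 4 with a library left out; the 6 lower became 3 to 7 with a library left out. Higher p53 targets (2) became 0 with DESeq2, Sertoli marker scaling or no filter, 1 with median-of-ratios scaling or background subtraction, and 0 to 2 with a library left out, and Sertoli marker scaling gave 2 lower. Higher BCL2 family genes (2) became 1 with DESeq2, Sertoli marker scaling, no filter, background subtraction or any library left out, and lower ones (3) became 1 to 4 with a library left out. Over all genes, 2906 higher became 1008 with DESeq2, 1739 with Sertoli marker scaling, 1937 with no filter, 1197 after background subtraction and 1324 to 2429 with a library left out. The lower calls stayed within 1.5 times of 5092, and calls that were higher made up 36.3% as reported, 18.7% with DESeq2, 18.8% with Sertoli marker scaling, 25.5% with no filter and 18.04% after background subtraction.

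Antisense upstream calls (2) became 0 when scaled on itself, 5 with a replicate block, 5 with no filter and 0 to 5 with a library left out; sense calls (0) became 0 to 2 with a library left out. Of the uncalled genes whose log2 fold changes are given, 4 turned sign. Trp53 gave -0.129 with Sertoli marker scaling, -0.0431 with no filter and -0.0510 to 0.0537 with a library left out. Cdkn1a gave -0.133, -0.0469 and -0.0489 to 0.0191 in the same fits, Ccng1 -0.0897, -0.0034 and -0.0133 to 0.0688, and Bik -0.649 to 0.0694 with a library left out, where the fit without KO replicate 2 passed. Over all 25 genes not called, those 4 included, 45 of 275 refits changed sign, at adjusted p of 0.174 or more. Causes were not tested.

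Replicate numbers were shared between genotypes, but same-numbered libraries deviated together with a correlation of 0.134 over 11335 genes in 2 pairs, too few to show pairing. With the replicate block, 5 of the 35 genes were higher and 6 lower, and 3362 and 5469 of all genes. Depth limits the genes near background, Trp73, Bbc3, Fas and Perp, and all sense upstream regions.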
